A study of Mus musculus with 20 samples.

Results

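The 40 genes described here encode collagens, other proteins of the extracellular matrix, the enzymes that crosslink it, and the contractile proteins Acta2 and Tagln of matrix-producing stromal cells. They were taken as a list of named genes, drawn up with earlier results of these data known, and matched to 40 of the 46318 genes counted. Of these, 36 passed the filter on low counts and were tested, and Eln, Dcn, Lum and Tagln did not. Collagens are helices of several alpha chains: the fibrillar types form the tensile fibres of connective tissue, type IV forms the sheet of basement membranes, and type VI forms beaded filaments around cells. Fibronectin, the thrombospondins and tenascin C link this scaffold to cell-surface receptors, and lysyl oxidases join collagen and elastin chains into insoluble fibres. Fibroblasts, smooth muscle cells and osteoblasts are the usual sources of fibrillar collagen, whereas macrophages are known mainly for degrading and taking up matrix and for secreting fibronectin and thrombospondin 1.

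RNA was sequenced from mouse macrophages grown from the bone marrow of female C57BL/6 mice in medium with a recombinant factor that the labels spell M-DSF. Mature cells were replated and treated for 24 h with the solvent DMSO, with 50 µM DSHN, with 1 µM GW3965, or with both compounds (the combination), in 5 replicates each. GW3965 activates the liver X receptors (LXR), nuclear receptors for oxysterols, and DSHN is described by the submitters as an agonist of the nuclear receptor NR0B2, for which an inhibitory role towards LXR is stated. The study asked how the compounds change gene expression alone and together. All groups share strain, sex, culture and solvent, and the labels do not say whether replicates came from separate mice, so that p-values measure the spread between these 20 cultures. Library totals ran from 16855029 to 23796561 counts. Levels are counts-per-million values (CPM) after scaling for library composition, and levels of different genes are compared only per kilobase of exon. Fold changes are log2 values with their standard error (SE) from edgeR's quasi-likelihood test over 13307 genes, and a gene was called at a Benjamini-Hochberg adjusted p under 0.05. Gene positions are those of the files, on GRCm39.

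Matrix transcripts were abundant in these macrophage cultures. Together the 40 genes took 1.14 to 1.38% of all counts in the DMSO libraries, 1.04 to 1.30% under DSHN, 1.10 to 1.37% under GW3965 and 0.726 to 0.860% under the combination. Every combination library thus lay below every library of the other groups. Per kilobase of exon, the highest levels in DMSO were those of Thbs1 at 378 CPM, the smooth muscle actin Acta2 at 294, Sparc at 227, Col1a1 at 224, Col1a2 at 200.4, Fn1 at 171 and Bgn at 166. Thbs1 ranked 122 and Col1a1 ranked 214 among the tested genes. The lowest were Col11a1 at 0.988, Col15a1 at 0.760 and Svep1 at 0.636. Between replicates the coefficient of variation had a median over the 36 genes of 8.45% in DMSO, 9.58% with DSHN, 10.1% with GW3965 and 9.18% with the combination.

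**Figure D1:**
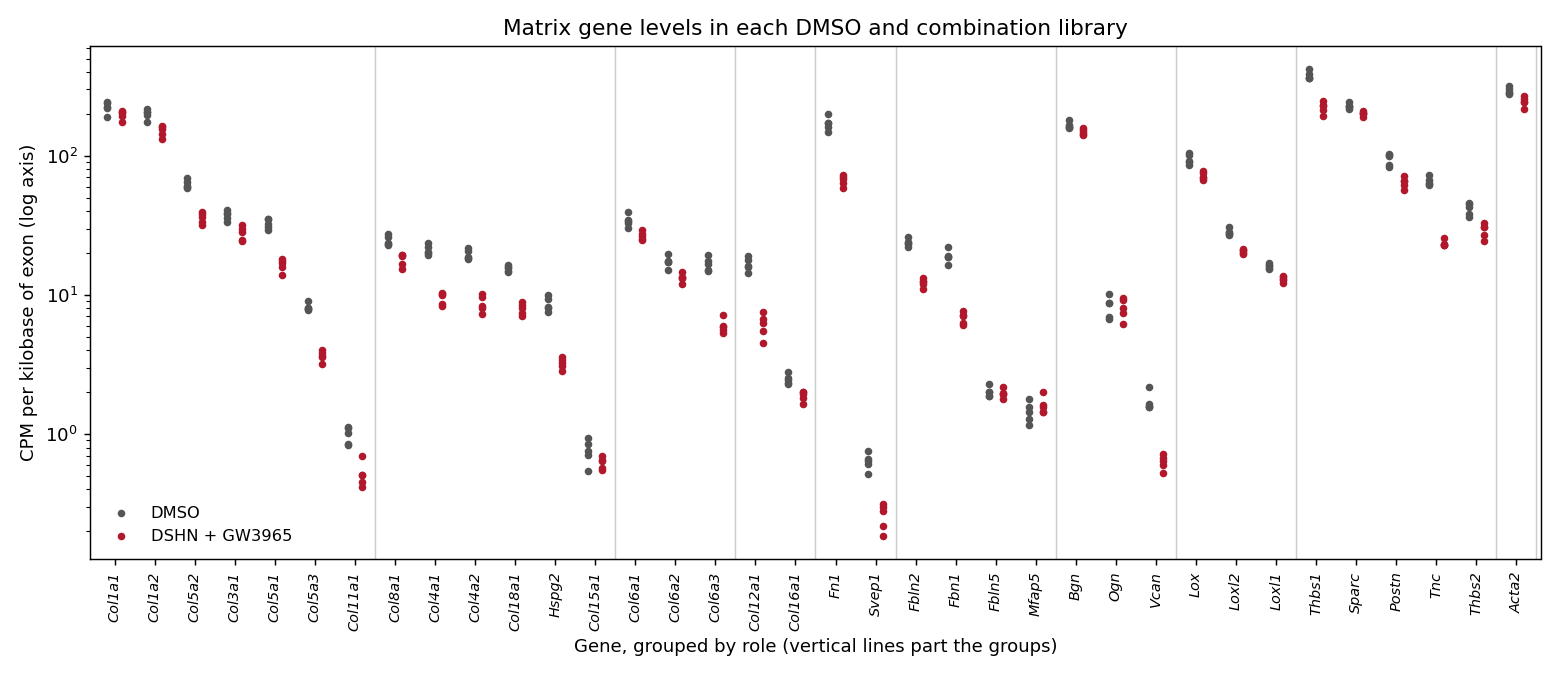
Level of each of the 36 tested matrix genes in CPM per kilobase of exon, on a log axis, with 1 point per library for the 5 DMSO and the 5 combination cultures. Levels in DMSO range from 0.636 (Svep1) to 378 (Thbs1), and the combination libraries lie below every DMSO library for 30 of the 36 genes, as for 25.8% of all tested genes.

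The cultures carried the labelled macrophage identity beside transcripts of other cell types. The summed level of 10 macrophage markers was 18450 to 19710 CPM in DMSO, 20640 to 21870 under DSHN, 19080 to 21430 under GW3965 and 19820 to 21670 under the combination, and none was at 0. Lyz2, a gene of 1057 exon bases, held the most counts of the 10 in every library, at 180238 to 229675 in DMSO. The sum is weighted to it, and calls over the single markers are given below. The 12 fibroblast markers summed to 135 to 152 CPM in DMSO, 151 to 188 under DSHN, 153 to 181 under GW3965 and 125 to 153 under the combination, where Tcf21 was at 0 in every library and 6 of the 12 stayed under 20 counts everywhere. The 8 markers of smooth muscle and pericytes summed to 212 to 243 CPM in DMSO, 177 to 202 under DSHN, 184 to 210 under GW3965 and 161 to 196 under the combination. Actg2 held the most counts of these 8, at 2562 to 3597 in DMSO, beside 831 to 1065 for Cnn1. The 8 endothelial markers summed to 10.8 to 12.3 CPM in DMSO, 8.54 to 11.7 under DSHN, 9.53 to 10.7 under GW3965 and 7.35 to 8.58 under the combination, and the 6 osteoblast markers, with Bglap at 0, to 18.0 to 20.4, 18.1 to 22.5, 18.5 to 20.9 and 15.4 to 18.2 CPM in the same order. Fibroblast sums of the combination overlapped those of DMSO, whereas the smooth muscle and the endothelial sums did not. In the fibroblast sum Cxcl12 was at 21.4 to 29.9 CPM in DMSO and 30.7 to 44.4 under the combination, and Pdgfrb at 49.7 to 53.3 and 31.1 to 38.3. Prrx1, named after its values were seen, held the most counts of the 12 in every library. Its raw counts were 929 to 1365 in DMSO and 935 to 1232 under the combination. Of the endothelial sum Kdr made up 6.04 to 7.51 CPM in DMSO and 2.78 to 3.97 under the combination. The part of these markers' cells in the matrix transcripts was not tested, and in bulk RNA fewer cells of a type and less RNA per cell cannot be told apart.

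With the combination of DSHN and GW3965 most of the tested matrix genes were lower. Of the 36 tested genes 33 were lower than in DMSO and 0 higher, or 91.7%, where 64.8% of all tested genes were called, 32.9% lower and 31.9% higher. The median log2 fold change of the 36 was -0.54, against 0.01 over all tested genes. In 11 genes the fall exceeded 2-fold: tenascin C, fibrillin 1, Col6a3, versican, Col12a1, perlecan, fibronectin, Svep1, both collagen IV chains and Col5a3. Among 10 classes by exon length, 6 of these lay in the longest, 3 in the next and 2 in the one after. Falls over 2-fold were not counted over all tested genes. The 3 genes not called were Mfap5 at 0.15 ± 0.14 (adjusted p = 0.35), Ogn at -0.04 ± 0.14 (adjusted p = 0.83) and Fbln5 at -0.03 ± 0.09 (adjusted p = 0.769). With the trend on exon length taken out, as described next, Mfap5 was at -0.10 and Fbln5 at 0.16, and neither was called. All 5 combination libraries lay below all 5 DMSO libraries for 30 of the 36 genes (83.3%, against 25.8% of all tested genes) and overlapped them for 6.

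Many matrix genes are long, and in the combination cultures counts fell with exon length across the whole transcriptome. Over all tested genes the deviation of log2 CPM from the gene's mean over the 20 libraries changed per doubling of exon length by 0.032 to 0.063 in DMSO libraries, by 0.0057 to 0.063 under DSHN, by 0.026 to 0.046 under GW3965 and by -0.124 to -0.094 under the combination. In 10 classes of equal gene number by exon length, the median log2 fold change of combination against DMSO ran from 0.42 in the shortest class, of at most 1305 bases, to -0.28 in the longest, of at least 9842 bases. Of the 36 tested matrix genes 24 lay in the 3 longest classes and 7 in the 5 shortest, with lengths from 1505 to 15340 bases.

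Set against genes of like length, the matrix genes still stood lower. Of the 36, 35 lay below the median of their own length class, the exception being Fbln5. In the longest class all 6 tested matrix genes were lower (57.8% of all genes there), in the next class all 6 (58.8%), in the class of 5557 to 7044 bases 11 of 12 (52.0%), and in the class of 4537 to 5556 bases all 4 (44.6%). A fit with each library's length trend taken out called 30 of 36 lower and 0 higher, with 58.4% of all tested genes called, 28.2% lower and 30.2% higher. It gave a median log2 fold change of -0.44 for the 36 genes and 8 falls over 2-fold, which were not counted over all tested genes here either. Its calls on Col1a1, Col15a1 and Col16a1 were lost. Within the matrix list the fold changes were more negative in longer genes: log2 fold change and log2 exon length gave Pearson's r of -0.825 and Spearman's rho of -0.816 over 36 genes, and -0.711 and -0.716 in the fit with the trend taken out. These genes share libraries, and the correlation is over genes, which are not replicates. For DSHN and GW3965 alone the rho values were -0.253 and -0.182.

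**Figure D2:**
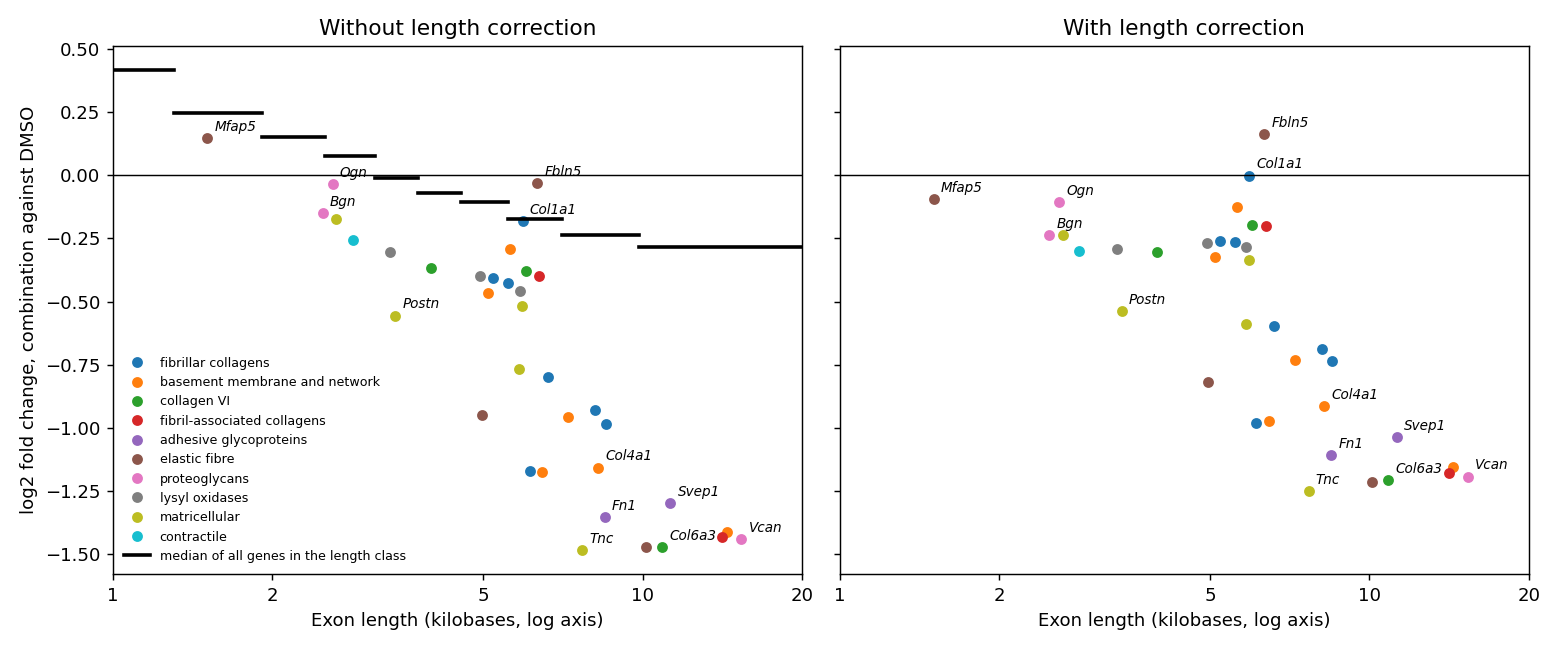
Log2 fold change of combination against DMSO for the 36 tested matrix genes (points, coloured by role) against exon length in kilobases on a log axis, without and with the length correction. Black bars, in the panel without correction only, mark the median of all genes in each length class. Only Fbln5 lies above the bar of its class, and the lowest point in both panels is Tnc, a gene of 7675 exon bases, at -1.48 and -1.25 after correction.

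Each compound alone changed fewer matrix genes, and in both directions. DSHN raised 2 and lowered 7 of the 36 (25% called, against 29% of all tested genes, 14.1% higher and 14.8% lower), and GW3965 raised 7 and lowered 9 (44.4%, against 46.5%, 23.6% higher and 23% lower), so that neither share stood above the background. With the length trend taken out 9 were called with DSHN (29.8% of all tested genes) and 18 with GW3965 (47.8%). Tenascin C, Col5a3, Col18a1, Col4a1, Fbln2 and Loxl2 were lower with either compound, and Ogn and Fbln5 were higher with either. GW3965 alone raised Bgn, Col1a1, Col6a1, Col6a2 and Svep1 and lowered Col4a2, Loxl1 and Vcan, and DSHN alone lowered Fbn1. For 19 genes neither compound passed the test, among them Fn1, Thbs1, Col1a2, Col3a1, Col5a1 and Col12a1. Both comparisons use the same 5 DMSO libraries, and the effects of DSHN and GW3965 were not tested against each other.

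Against the single compounds the combination was again lower. It was lower than GW3965 alone for 35 of 36 genes (97.2%, with 57.8% of all tested genes called and 29.5% lower) and lower than DSHN alone for 34 (94.4%, with 58.1% called and 29.5% lower). With the length trend taken out the counts were 33 (47.3% of all tested genes called, 23.5% lower) and 32 (46.4% called, 22.9% lower), with medians of -0.51 and -0.38 in place of -0.61 and -0.54. The comparisons of the combination share its 5 libraries.

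**Figure D3:**
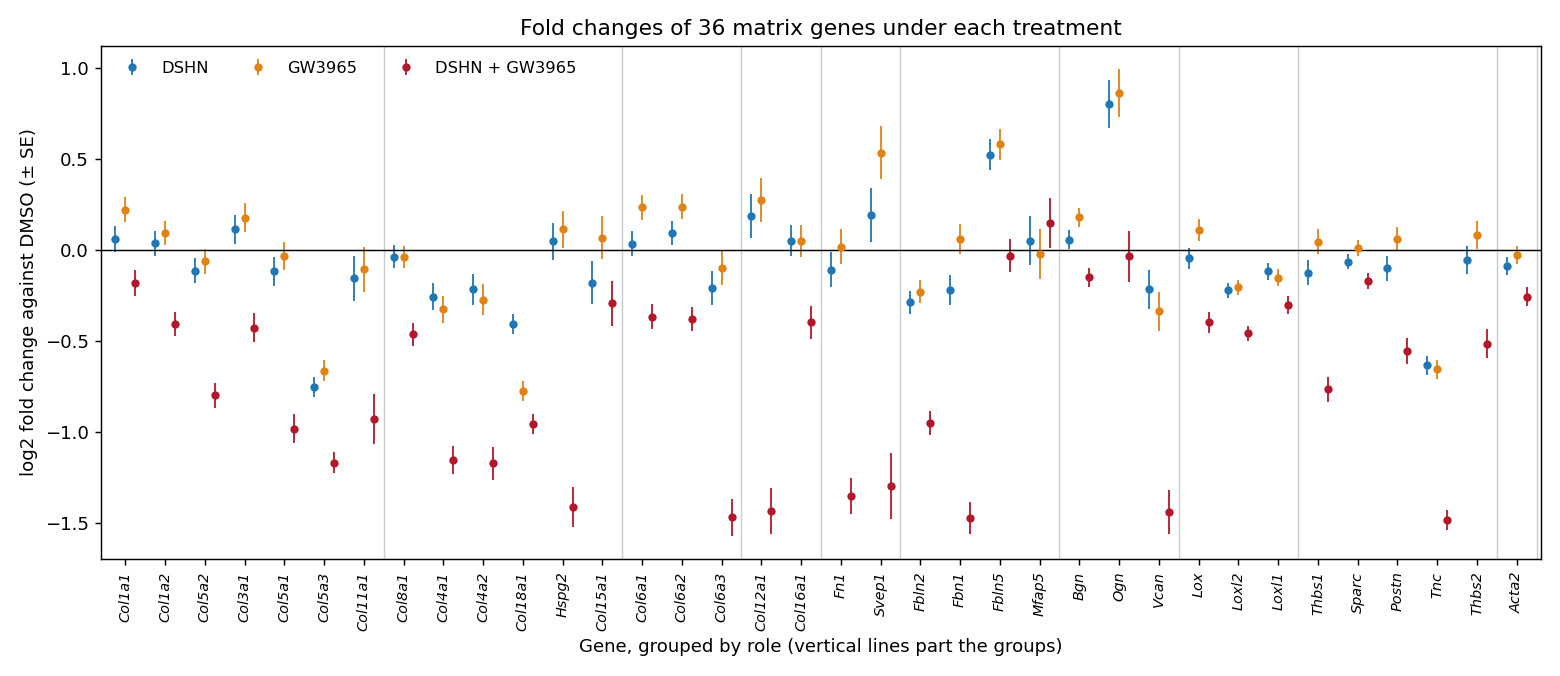
Log2 fold change against DMSO, with SE, of the 36 tested matrix genes under DSHN, GW3965 and the combination, grouped by role. The combination values run from -1.48 (Tnc) to 0.15 (Mfap5), while the single-compound values scatter on both sides of 0, from -0.77 (Col18a1 with GW3965) to 0.86 (Ogn with GW3965).

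Among the fibrillar collagens all 7 tested genes were lower with the combination, with a median log2 fold change of -0.80, and the main chains of type I collagen fell least. Col1a1, which makes the larger share of the type I helix, stood at 1326 ± 127 CPM (SD, n = 5) in DMSO, 1382 ± 136 with DSHN, 1545 ± 157 with GW3965 and 1170 ± 79.0 with the combination. Its libraries ranged over 1126 to 1455, 1205 to 1561, 1327 to 1748 and 1046 to 1246 CPM, and those of the combination overlapped DMSO. The fall was -0.18 ± 0.07 (adjusted p = 0.0277), at the median of its length class (-0.17), and it was 0.00 (adjusted p = 0.985) with the length trend taken out. Leaving out any 1 of 4 of the 10 libraries also ended that call, with adjusted p-values up to 0.0909. GW3965 raised Col1a1 by 0.22 ± 0.07 (adjusted p = 0.0122), a call that ended at an adjusted p of 0.0511 without DMSO replicate 5.

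The partner chain Col1a2 (GeneID 12843, chr6:4505618-4541543, 5222 bases of exon) stood at 1133, 1083, 1085, 1018 and 913 CPM in the DMSO cultures, 966, 1042, 1032, 1201 and 1121 with DSHN, 1240, 1153, 1137, 971 and 1069 with GW3965 and 856, 835, 750.2, 684 and 819.9 with both. All combination libraries were lower than those of the other groups, which overlapped one another. The difference from DMSO was -0.41 ± 0.07 (adjusted p = 7.57e-06), and -0.26 with the length trend taken out. Col3a1 (GeneID 12825, chr1:45350698-45388866, 5564 bases of exon), the chain of type III collagen found with type I in skin and vessels, stood at 228, 216, 212, 199.8 and 187 CPM in the DMSO cultures, 208, 207, 222, 260.2 and 230.1 with DSHN, 271, 248, 234, 190.4 and 236 with GW3965 and 176, 159, 139, 136 and 165 with both. It behaved as Col1a2 did, with combination libraries below all others and a difference from DMSO of -0.43 ± 0.08 (adjusted p = 3.65e-05), or -0.27 after correction. GW3965 gave Col3a1 a difference of 0.18 (adjusted p = 0.0671), called only with the length trend taken out (adjusted p = 0.0277).

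Type V collagen sets the diameter of type I fibrils, and its chains fell further. Col5a1 (GeneID 12831, chr2:27776393-27929522, 8515 bases of exon) stood at 299, 297, 277, 262 and 249 CPM in the DMSO cultures, 227, 249, 230.1, 298 and 270.3 with DSHN, 314, 283, 265, 235 and 253 with GW3965 and 153, 149, 135, 118 and 144 with both. The combination libraries lay below all others, with a log2 difference from DMSO of -0.98 ± 0.08 (adjusted p = 3.78e-11). Col5a2 (GeneID 12832, chr1:45413491-45542442, 6615 bases of exon) stood at 455, 431, 402, 388 and 393 CPM in the DMSO cultures, 332, 379, 368, 429 and 402 with DSHN, 456, 405, 395, 349 and 376 with GW3965 and 262, 242, 219.9, 209.6 and 254 with both, which is lower in every combination library than in any other and differs from DMSO by -0.80 ± 0.07 (adjusted p = 1.65e-10). Neither compound alone changed these chains past the test. Col5a3 (GeneID 53867, chr9:20681353-20726363, 6112 bases of exon), a minor chain of type V collagen, stood at 55.0, 48.0, 49.1, 48.7 and 49.0 CPM in the DMSO cultures, 27.9, 29.2, 28.4, 30.9 and 32.1 with DSHN, 34.5, 31.7, 29.1, 29.8 and 32.8 with GW3965 and 23.3, 24.4, 19.4, 21.8 and 22.1 with both. The DMSO libraries were above all 15 treated ones, and the combination libraries were below all others. Col5a3 fell by 0.75 on the log2 scale with DSHN (SE 0.06, adjusted p = 2.15e-10), by 0.66 with GW3965 (SE 0.06, adjusted p = 3.35e-10) and by 1.17 with both (SE 0.06, adjusted p = 8.27e-15). Its interaction, which is the DSHN effect in the presence of GW3965 less its effect in DMSO, was 0.25 ± 0.08 (adjusted p = 0.0149, 0.40 after correction), so the combined fall was smaller than the sum of the single ones. Col11a1 (GeneID 12814, chr3:113823933-114014405, 8130 bases of exon), a cartilage fibril chain, was near the lower end at 9.09, 8.32, 9.01, 6.83 and 6.92 CPM in the DMSO cultures, 5.76, 6.42, 7.97, 8.95 and 7.33 with DSHN, 9.43, 7.16, 7.11, 7.29 and 6.60 with GW3965 and 5.62, 4.16, 3.70, 3.40 and 4.14 with both. Even so the combination libraries lay below all DMSO libraries, with a difference of -0.93 ± 0.14 (adjusted p = 1.47e-06).

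In the basement membrane and network group all 6 genes were lower with the combination, with a median of -1.06. Col4a1 and Col4a2 encode the chains of the common collagen IV helix and lie head to head. Their RefSeq start sites on GRCm38.p6 are 21 bases apart on opposite strands, so the windows of 250 bases before to 50 after each start share 78 bases. Both are shown because the 2 genes fell by similar amounts with the combination, and capitals mark the CCAAT box and the GC box GGGCGG on either strand. The windows are chr8:11312777-11313076, minus strand for Col4a1 and chr8:11312555-11312854, plus strand for Col4a2.
Col4a1: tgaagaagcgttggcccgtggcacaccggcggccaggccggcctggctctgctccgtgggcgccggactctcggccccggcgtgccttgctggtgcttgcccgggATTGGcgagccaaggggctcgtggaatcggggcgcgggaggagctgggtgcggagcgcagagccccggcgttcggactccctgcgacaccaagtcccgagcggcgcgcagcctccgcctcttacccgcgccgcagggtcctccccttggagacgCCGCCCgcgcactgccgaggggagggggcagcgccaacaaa
Col4a2: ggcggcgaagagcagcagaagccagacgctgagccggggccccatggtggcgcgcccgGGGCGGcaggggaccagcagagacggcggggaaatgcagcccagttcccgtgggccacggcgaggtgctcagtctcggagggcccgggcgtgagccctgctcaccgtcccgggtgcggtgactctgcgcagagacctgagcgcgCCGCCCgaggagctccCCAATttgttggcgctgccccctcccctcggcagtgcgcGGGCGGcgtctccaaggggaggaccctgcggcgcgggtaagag
Each window holds 1 CCAAT box, and GC boxes number 1 for Col4a1 and 3 for Col4a2, with 1 of them in the shared stretch.

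Col4a1 (GeneID 12826, chr8:11248423-11362889, 8222 bases of exon) stood at 195, 182, 158, 168 and 166 CPM in the DMSO cultures, 127, 154, 129, 158 and 159 with DSHN, 164, 137, 132, 129 and 132 with GW3965 and 81.7, 85.2, 71.2, 68.4 and 83.3 with both. Combination libraries were below all others, and the single-compound libraries overlapped DMSO at its lower end. The log2 differences from DMSO were -0.26 ± 0.07 with DSHN (adjusted p = 0.00923), -0.33 ± 0.07 with GW3965 (adjusted p = 0.000671) and -1.16 ± 0.08 with both (adjusted p = 1.21e-12), the last -0.91 after length correction. Col4a2 (GeneID 12827, chr8:11362805-11499287, 6450 bases of exon) stood at 141, 134, 120.1, 119 and 117 CPM in the DMSO cultures, 95.4, 114, 95.9, 118 and 121 with DSHN, 128, 107, 100.1, 92.5 and 96.4 with GW3965 and 65.3, 61.9, 52.1, 47.1 and 53.5 with both. It followed the same order, with -0.22 ± 0.09 (adjusted p = 0.0577, not called), -0.27 ± 0.09 (adjusted p = 0.0101) and -1.17 ± 0.09 (adjusted p = 1.40e-11). Of the exon length of Col4a1 13.1% is shared with Col4a2 or a gene model on the opposite strand, where reads may go uncounted.

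Col18a1 (GeneID 12822, chr10:76888013-77002391, 7237 bases of exon), the basement membrane collagen from which endostatin is cleaved, stood at 114, 119, 115, 106 and 108 CPM in the DMSO cultures, 79.9, 81.4, 83.7, 89.6 and 89.4 with DSHN, 69.4, 70.0, 62.1, 60.2 and 67.1 with GW3965 and 64.7, 61.7, 58.5, 51.2 and 53.3 with both. Here the single compounds already separated from DMSO, and the GW3965 and combination libraries overlapped. It fell by 0.41 with DSHN (SE 0.05, adjusted p = 2.77e-06), by 0.77 with GW3965 (SE 0.06, adjusted p = 1.27e-11) and by 0.96 with both (SE 0.06, adjusted p = 1.34e-13). The combination differed from GW3965 alone by -0.18 ± 0.06 (adjusted p = 0.00838), which turned to 0.03 (adjusted p = 0.688) with the length trend taken out. Its interaction was 0.22 ± 0.08 (adjusted p = 0.0198, 0.42 after correction) and reached an adjusted p of 0.0522 without combination replicate 1.

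Hspg2 (GeneID 15530, chr4:137196062-137297941, 14402 bases of exon), the heparan sulfate proteoglycan perlecan, stood at 143, 119, 116, 135 and 108 CPM in the DMSO cultures, 105, 127, 108, 154 and 149.9 with DSHN, 171, 137, 127, 118 and 121 with GW3965 and 51.7, 49.2, 46.8, 41.2 and 44.6 with both. Neither compound alone separated it from DMSO, while the combination libraries lay below all others, a difference of -1.41 ± 0.11 (adjusted p = 1.80e-11) and -1.16 after correction. Col8a1, a network collagen of vessel walls, was at 126 ± 10.4 CPM in DMSO and 91.5 ± 9.40 with the combination (SD, n = 5), a difference of -0.46 ± 0.06 (adjusted p = 4.60e-07), and its combination libraries (78.0 to 98.5) lay below those of DMSO (118 to 141). Col15a1 was at 3.05 to 5.30 CPM in DMSO and 3.12 to 3.91 with the combination. These ranges overlapped, and its call (-0.29 ± 0.12, adjusted p = 0.0399) ended on leaving out any 1 of 6 of the 10 libraries, with adjusted p-values up to 0.154, and with the length correction (adjusted p = 0.37).

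The 3 chains of collagen VI, which assemble into one heterotrimer, were all lower with the combination, but by unequal amounts. Col6a1 (GeneID 12833, chr10:76544626-76561878, 3976 bases of exon) stood at 158, 138, 134, 130.4 and 121 CPM in the DMSO cultures, 134, 128, 135, 159.9 and 140.5 with DSHN, 185, 159, 165, 139 and 154 with GW3965 and 116, 108, 98.7, 101 and 105 with both. Col6a2 (GeneID 12834, chr10:76431590-76459464, 6014 bases of exon) stood at 118, 103, 106, 104 and 90.8 CPM in the DMSO cultures, 105, 101, 109, 124 and 115 with DSHN, 144, 120.4, 121, 110.3 and 119 with GW3965 and 87.4, 81.3, 79.5, 72.4 and 79.7 with both. Both were lowest in the combination libraries, which did not overlap DMSO, and both were called higher with GW3965, by 0.23 ± 0.07 (adjusted p = 0.00657) and 0.24 ± 0.07 (adjusted p = 0.00459). Their differences with the combination were -0.37 ± 0.07 (adjusted p = 4.75e-05) and -0.38 ± 0.07 (adjusted p = 2.22e-05), or -0.30 and -0.20 after correction. Col6a3 (GeneID 12835, chr1:90694582-90771710, 10858 bases of exon), whose product is the largest of the 3 chains, stood at 212, 180.2, 162, 189.5 and 164 CPM in the DMSO cultures, 139, 155, 129, 186 and 177 with DSHN, 210.4, 166, 155, 157 and 159 with GW3965 and 78.3, 64.3, 58.2, 60.9 and 65.4 with both. It fell by 1.47 with the combination (SE 0.10, adjusted p = 1.90e-12) (-1.21 in the length-corrected fit), and passed the test with neither compound alone.

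Of the fibril-associated collagens, Col12a1 (GeneID 12816, chr9:79506269-79628423, 14138 bases of exon), which coats type I fibrils, stood at 268, 251, 223, 228 and 203 CPM in the DMSO cultures, 210.2, 236, 246, 335 and 308 with DSHN, 351, 296, 278, 230.4 and 261 with GW3965 and 107, 89.1, 78.3, 64.2 and 95.0 with both. Its combination libraries were below all others, and 2 of the DSHN libraries and 3 of the GW3965 libraries exceeded every DMSO library. The differences from DMSO were 0.19 ± 0.12 (adjusted p = 0.262), 0.27 ± 0.12 (adjusted p = 0.0653) and -1.43 ± 0.13 (adjusted p = 2.07e-10), of which only the last passed. Col16a1 was at 14.6 to 18.0 CPM in DMSO and 10.6 to 12.9 with the combination, without overlap, a difference of -0.40 ± 0.09 (adjusted p = 0.000418) that missed the threshold at 0.0502 with the length trend taken out.

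Both adhesive glycoproteins fell steeply with the combination. Fn1 (GeneID 14268, chr1:71624632-71692439, 8471 bases of exon), fibronectin, stood at 1690, 1459, 1368, 1458 and 1250 CPM in the DMSO cultures, 1121, 1274, 1163, 1570 and 1573 with DSHN, 1821, 1499, 1376, 1273 and 1334 with GW3965 and 621, 594, 536, 498 and 577 with both. The 3 other groups overlapped, and the combination libraries lay far below all of them, at 498 to 621 CPM. The difference was -1.35 ± 0.10 (adjusted p = 5.73e-12), and -1.11 (adjusted p = 5.43e-11) after length correction, with -0.11 for DSHN (adjusted p = 0.429) and 0.02 for GW3965 (adjusted p = 0.914). Svep1 (GeneID 64817, chr4:58042796-58206596, 11275 bases of exon), a large cell adhesion protein with sushi domains, was scarce at 8.46, 7.19, 7.499, 6.88 and 5.83 CPM in the DMSO cultures, 5.89, 7.26, 6.54, 12.02 and 10.02 with DSHN, 11.1, 11.5, 10.3, 9.09 and 10.2 with GW3965 and 3.14, 3.53, 2.47, 2.10 and 3.40 with both. The GW3965 libraries lay above all DMSO libraries and the combination libraries below, while the DSHN libraries spread across DMSO. GW3965 raised Svep1 by 0.53 ± 0.14 (adjusted p = 0.00333) and with the combination its log2 fold change was -1.30 ± 0.18 (adjusted p = 5.26e-07). The interaction of -2.02 ± 0.23 (adjusted p = 8.92e-08) was the most negative of the list.

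**Figure D4:**
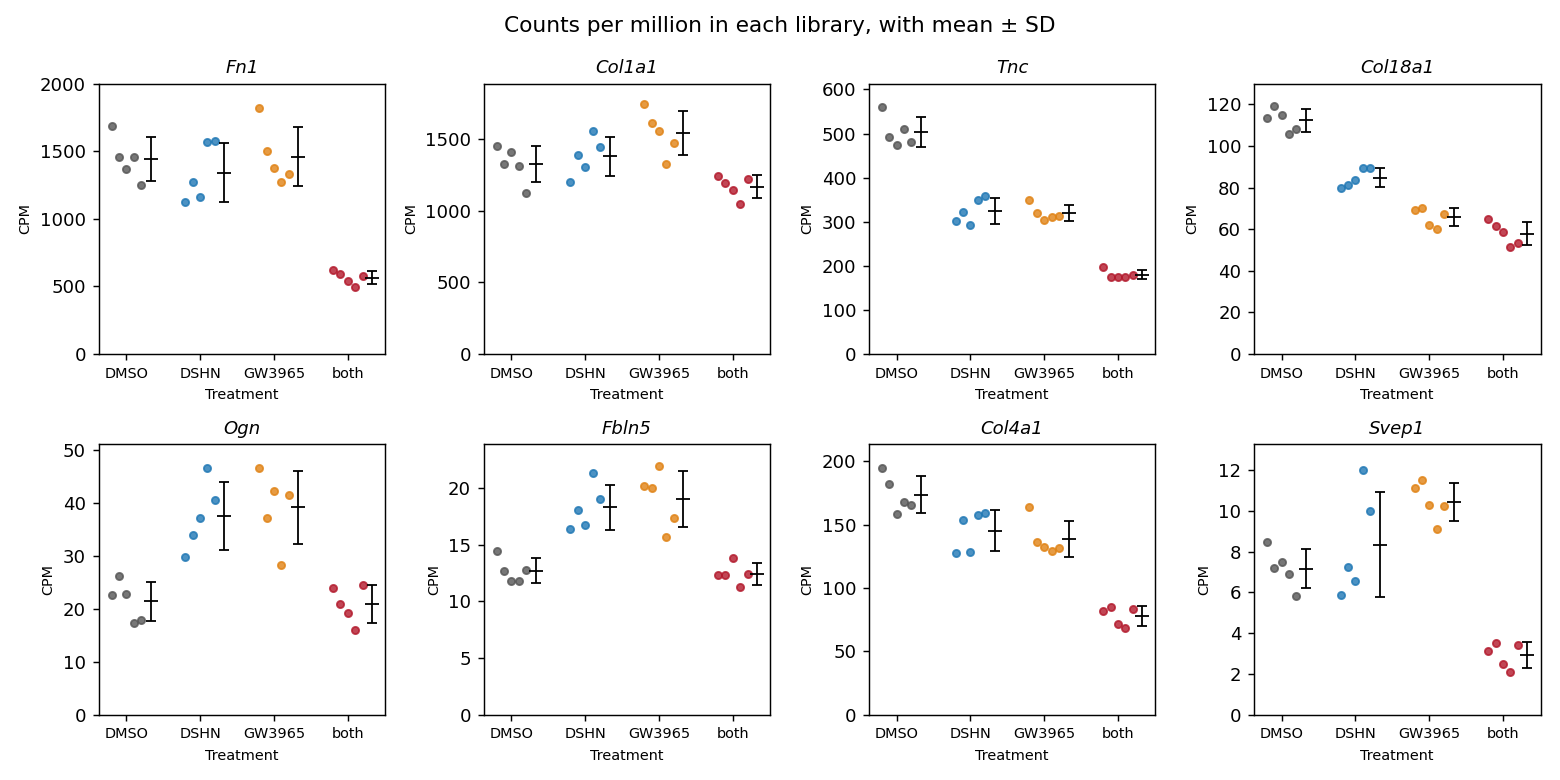
CPM in each of the 20 libraries (points) with mean ± SD (black) for Fn1, Col1a1, Tnc, Col18a1, Ogn, Fbln5, Col4a1 and Svep1, each panel on its own axis from 0. Fn1 is low with both compounds together, from 1445 ± 162 in DMSO to 565 ± 48.6, Tnc falls stepwise, and Ogn and Fbln5 rise with either compound and lie in the DMSO range with both.

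The elastic fibre genes moved in different directions. Fbn1 (GeneID 14118, chr2:125142514-125348417, 10126 bases of exon), the microfibril protein fibrillin 1, stood at 223, 192, 189.9, 191 and 167 CPM in the DMSO cultures, 143, 158, 152, 193 and 183 with DSHN, 241, 203, 189, 181 and 191 with GW3965 and 77.8, 71.5, 63.8, 61.1 and 72.9 with both. The combination libraries lay below all others, with -1.47 ± 0.09 against DMSO (adjusted p = 1.49e-13) and -1.21 after correction. The DSHN call (-0.22 ± 0.08, adjusted p = 0.0472) ended on leaving out any 1 of 7 of the 10 libraries, with adjusted p-values up to 0.169. Fbln2 (GeneID 14115, chr6:91189442-91249522, 4963 bases of exon), a fibulin of basement membranes and elastic fibres, stood at 130.4, 119, 109, 116 and 115 CPM in the DMSO cultures, 85.1, 97.2, 88.9, 105 and 108 with DSHN, 116, 103, 96.1, 92.4 and 96.9 with GW3965 and 65.9, 61.9, 54.9, 59.9 and 62.9 with both. Its combination libraries were below all others and its DSHN libraries below all DMSO libraries. The 3 differences from DMSO were -0.29 ± 0.06 (adjusted p = 0.00107), -0.23 ± 0.06 (adjusted p = 0.004) and -0.95 ± 0.07 (adjusted p = 2.54e-12). Mfap5, a short microfibril-associated glycoprotein of 1505 exon bases, was at 1.74 to 2.70 CPM in DMSO and 2.15 to 3.02 with the combination and passed no test.

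Fbln5 (GeneID 23876, chr12:101712824-101785541, 6325 bases of exon), which is needed to assemble elastic fibres, stood at 14.4, 12.7, 11.8, 11.8 and 12.8 CPM in the DMSO cultures, 16.4, 18.1, 16.8, 21.3 and 19.04 with DSHN, 20.1, 20.0, 22.0, 15.7 and 17.3 with GW3965 and 12.3, 12.3, 13.8, 11.2 and 12.4 with both. All 10 single-compound libraries were above all DMSO libraries, and the combination libraries lay within or just below the DMSO range. Fbln5 rose by 0.52 ± 0.09 with DSHN (adjusted p = 4.45e-05) and by 0.58 ± 0.09 with GW3965 (adjusted p = 3.63e-06), with an interaction of -1.13 ± 0.12 (adjusted p = 4.90e-08). The combination differed from GW3965 alone by -0.61 ± 0.09 (adjusted p = 1.30e-06) and from DSHN alone by -0.55 ± 0.09 (adjusted p = 5.65e-06).

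Among the proteoglycans Ogn (GeneID 18295, chr13:49761491-49777977, 2597 bases of exon), the small leucine-rich proteoglycan osteoglycin, had the same pattern as Fbln5. It stood at 22.7, 26.2, 22.9, 17.4 and 17.9 CPM in the DMSO cultures, 29.8, 34.0, 37.2, 46.6 and 40.6 with DSHN, 46.7, 37.2, 42.2, 28.4 and 41.5 with GW3965 and 24.0, 21.0, 19.2, 15.9 and 24.5 with both. The single-compound libraries lay above all DMSO libraries, and those of the combination overlapped DMSO throughout. Ogn rose by 0.80 ± 0.13 with DSHN (adjusted p = 3.93e-05) and by 0.86 ± 0.13 with GW3965 (adjusted p = 5.18e-06), and its interaction was -1.70 ± 0.19 (adjusted p = 6.05e-08). Its exons span 2597 bases, a length class with a median fold change of 0.08 for the combination, and the length correction left these values at 0.80, 0.87 and -1.78. The summed fibroblast markers were at 135 to 152 CPM in DMSO, 151 to 188 under DSHN, 153 to 181 under GW3965 and 125 to 153 under the combination, and their part in the rise of Ogn and Fbln5 was not tested.

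The start windows of Ogn and Fbln5 (RefSeq, GRCm38.p6) are shown because these were the 2 genes that rose with either compound. Capitals mark the TATA box TATAAA, the CCAAT box and the GC box GGGCGG on either strand. The windows are chr13:49607765-49608064, plus strand for Ogn and chr12:101819070-101819369, minus strand for Fbln5.
Ogn: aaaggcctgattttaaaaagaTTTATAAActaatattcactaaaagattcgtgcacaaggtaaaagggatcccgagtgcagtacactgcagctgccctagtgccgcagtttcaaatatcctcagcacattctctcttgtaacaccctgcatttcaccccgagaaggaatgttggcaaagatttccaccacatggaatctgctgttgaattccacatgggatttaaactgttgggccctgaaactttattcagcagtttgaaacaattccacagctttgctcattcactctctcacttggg
Fbln5: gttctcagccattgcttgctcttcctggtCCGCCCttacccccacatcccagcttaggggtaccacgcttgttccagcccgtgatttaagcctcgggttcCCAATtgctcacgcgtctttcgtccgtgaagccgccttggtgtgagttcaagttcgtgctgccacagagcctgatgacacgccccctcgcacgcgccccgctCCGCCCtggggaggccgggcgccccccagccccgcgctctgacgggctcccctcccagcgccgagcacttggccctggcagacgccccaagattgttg
The Ogn window holds TATAAA and, overlapping it, the same letters on the other strand, but no GC box, and the Fbln5 window holds 1 CCAAT box and 2 GC boxes and no TATAAA. The Ogn letters stand near the upstream end of the window, far from the start site, and their use as a TATA box was not tested.

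Bgn, biglycan, was the most abundant proteoglycan per kilobase, at 166 CPM in DMSO against 8.25 for Ogn. It was at 392 to 453 CPM in DMSO, 398 to 468 under DSHN, 414 to 527 under GW3965 and 349.5 to 397 under the combination, and neighbouring groups overlapped. GW3965 raised it by 0.18 ± 0.05 (adjusted p = 0.00742), and it was lower with the combination (-0.15 ± 0.05, adjusted p = 0.0149, -0.24 after correction), a call that ended at an adjusted p of 0.0658 without DMSO replicate 1. Vcan (GeneID 13003, chr13:89803429-89891146, 15340 bases of exon), the large aggregating proteoglycan versican, stood at 33.4, 23.9, 25.3, 24.1 and 24.5 CPM in the DMSO cultures, 17.7, 21.4, 19.9, 28.9 and 26.0 with DSHN, 22.4, 22.2, 21.7, 19.9 and 17.8 with GW3965 and 10.3, 9.17, 8.05, 9.81 and 11.0 with both. The combination libraries lay below all others, and those of GW3965 below all of DMSO. Its log2 fold change was -1.44 ± 0.12 with the combination (adjusted p = 8.80e-11, -1.19 after correction) and -0.34 ± 0.11 with GW3965 (adjusted p = 0.012), the latter with an adjusted p of 0.0685 without DMSO replicate 1.

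The 3 lysyl oxidases were lower with the combination by smaller amounts. Lox (GeneID 16948), the most abundant per kilobase at 94.8 CPM in DMSO, stood at 514, 503, 453, 426 and 443 CPM in the DMSO cultures, 395, 451, 439, 516 and 463 with DSHN, 545, 507, 512, 460.5 and 496 with GW3965 and 374, 346, 340.5, 331 and 382 with both. Combination libraries were below all others, and Lox differed from DMSO by -0.40 ± 0.06 (adjusted p = 1.88e-06) and from GW3965 by -0.51 ± 0.06 (adjusted p = 7.22e-08). Loxl1 was at 50.9 to 56.6 CPM in DMSO and 40.7 to 45.5 with the combination (-0.30 ± 0.05, adjusted p = 3.76e-06), and Loxl2 at 158 to 179.6 and 115 to 126 (-0.46 ± 0.04, adjusted p = 3.69e-10, -0.28 after correction). Neither pair of ranges overlapped. Loxl2 was also lower with DSHN (-0.22 ± 0.04, adjusted p = 0.0002) and with GW3965 (-0.21 ± 0.04, adjusted p = 0.000189), and its difference of the combination from DSHN alone was -0.24, or -0.08 (adjusted p = 0.087) with the length trend taken out.

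All 5 matricellular genes, whose products sit in the matrix and signal to cells, were lower with the combination. Tnc (GeneID 21923, chr4:63878022-63965554, 7675 bases of exon), tenascin C, an anti-adhesive protein of wounds and tumour stroma, stood at 559, 492, 474, 511 and 482 CPM in the DMSO cultures, 301, 321, 292, 349 and 359 with DSHN, 349, 320.2, 304, 311 and 312 with GW3965 and 197, 175, 174, 175 and 179 with both. DMSO libraries were above all others, those of both single compounds overlapped each other, and those of the combination were below all others. Tnc fell by 0.64 with DSHN (SE 0.05, adjusted p = 2.01e-09), by 0.66 with GW3965 (SE 0.05, adjusted p = 1.69e-10) and by 1.48 with both (SE 0.06, adjusted p = 1.86e-17), the most negative log2 fold change of the list against DMSO. The interaction was -0.19 ± 0.08 (adjusted p = 0.0398). It turned to 0.02 (adjusted p = 0.857) with the length trend taken out, and leaving out any 1 of 11 of the 20 libraries ended its call.

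The start windows of Tnc and Col5a3 (RefSeq, GRCm38.p6) are shown because their DMSO libraries lay above every treated library, as did those of Col18a1 and Loxl2 (4 of 36 genes, or 11.1%, against 6.06% of all tested genes). Capitals mark the TATA box TATAAA, the CCAAT box and the GC box GGGCGG on either strand. The windows are chr4:64046966-64047265, minus strand for Tnc and chr9:20815018-20815317, minus strand for Col5a3.
Tnc: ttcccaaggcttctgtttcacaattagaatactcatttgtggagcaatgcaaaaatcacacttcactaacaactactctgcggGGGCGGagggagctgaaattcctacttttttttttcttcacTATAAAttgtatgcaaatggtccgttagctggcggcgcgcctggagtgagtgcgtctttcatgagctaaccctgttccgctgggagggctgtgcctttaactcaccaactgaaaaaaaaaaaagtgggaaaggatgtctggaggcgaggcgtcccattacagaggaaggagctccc
Col5a3: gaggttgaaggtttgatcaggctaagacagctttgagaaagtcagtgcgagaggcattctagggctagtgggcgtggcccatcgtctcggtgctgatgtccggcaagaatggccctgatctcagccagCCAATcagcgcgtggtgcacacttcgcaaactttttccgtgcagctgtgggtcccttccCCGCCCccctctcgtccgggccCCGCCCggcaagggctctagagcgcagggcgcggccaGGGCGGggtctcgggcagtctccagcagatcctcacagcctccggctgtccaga
The Tnc window holds 1 TATAAA and 1 GC box, and the Col5a3 window holds 1 CCAAT box and 3 GC boxes. The TATAAA of Tnc stands near the middle of the window, well before the start site, and its use as a TATA box was not tested.

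Thbs1 (GeneID 21825, chr2:117942357-117957614, 5848 bases of exon), thrombospondin 1, an activator of latent TGF-beta, stood at 2450, 2277, 2113, 2110 and 2108 CPM in the DMSO cultures, 1762, 2006, 1912, 2257 and 2194 with DSHN, 2604, 2339, 2229, 2073 and 2149 with GW3965 and 1456, 1325, 1239, 1125 and 1357 with both. Only the combination separated from DMSO, by -0.77 ± 0.07 (adjusted p = 3.22e-10, -0.59 after correction). Thbs2 (GeneID 21826, chr17:14885762-14914524, 5922 bases of exon), its relative, stood at 266, 252, 272, 225 and 215 CPM in the DMSO cultures, 202, 233, 238, 262 and 248 with DSHN, 291, 254, 266, 226 and 264 with GW3965 and 183, 182, 159, 144 and 194 with both. The combination libraries again lay below all others, with -0.52 ± 0.08 against DMSO (adjusted p = 2.18e-06, -0.34 after correction). Postn (GeneID 50706, chr3:54266688-54298462, 3406 bases of exon), periostin, a matrix protein of bone-lining tissue and heart valves, stood at 353, 346, 337, 291 and 283 CPM in the DMSO cultures, 268, 288, 294, 331 and 321 with DSHN, 367, 351, 345, 297 and 318 with GW3965 and 224, 223, 208, 194 and 245 with both. It fell by 0.56 with the combination (SE 0.07, adjusted p = 9.64e-08), in a length class with a median of -0.01, and the corrected value was -0.54.

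Sparc, osteonectin, which binds collagen and calcium, changed little: 568 to 638 CPM in DMSO, 539.5 to 618 under DSHN, 549 to 649.9 under GW3965 and 499.9 to 552 under the combination. The difference of the combination from DMSO was -0.17 ± 0.04 (adjusted p = 0.000843) without overlap, and -0.24 after correction. The call on that from DSHN, -0.11 ± 0.04 (adjusted p = 0.033), ended on leaving out any 1 of 4 of the 10 libraries, with adjusted p-values up to 0.158. The length-corrected fit called Sparc lower than with DSHN. Acta2, the actin of smooth muscle and myofibroblasts, ranged over 792 to 896 CPM in DMSO and 615 to 768 with the combination, a difference of -0.26 ± 0.05 (adjusted p = 7.82e-05), and -0.30 after correction, in a length class with a median of 0.08. Of the 7 tested smooth muscle and pericyte markers 5 were called lower and 1 higher there (71.4% lower, against 32.9% of all tested genes), and their part in the fall of Acta2 was not tested.

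The 4 untested genes were near the detection limit in every library. Eln, elastin, had 0 to 3 counts, Lum, lumican, 0 to 4, and Dcn, decorin, 1 to 14, although Dcn and Lum are abundant products of fibroblasts in connective tissue. Tagln had 1 to 7 counts beside 792 to 896 CPM of Acta2 in DMSO. Of the exon length of Tagln 85.8% is shared with exons of Pcsk7 on the opposite strand, and no strand option stands in the counting commands, so its counts cannot be read as its expression. The next highest share of the list is the 13.1% of Col4a1.

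The test of the interaction asked whether the DSHN effect differed in the presence of GW3965. It was negative for 28 of the 36 tested genes and positive for 2, with 50.2% of all tested genes called, 26.5% negative and 23.7% positive. With the length trend taken out it was negative for 29 and positive for 2, with 44.2% of all tested genes called, 22.6% and 21.5%. The median was -0.55, or -0.45 after correction. The 5 most negative values were those of Svep1 at -2.02, Col12a1 at -1.89 (adjusted p = 5.59e-09), Ogn at -1.70, Hspg2 at -1.57 (adjusted p = 8.55e-09) and Fbn1 at -1.31 (adjusted p = 4.96e-09). The 2 positive values were those of Col5a3 and Col18a1, genes that each compound lowered alone. Col15a1, Loxl1, Loxl2, Mfap5, Sparc and Acta2 did not pass, and of these Sparc and Acta2 were called negative with the length trend taken out.

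Ratios between collagen chains of one helix differed from DMSO in 3 of 5 pairs. Ratios of CPM per kilobase were compared with DMSO by a two-sided exact permutation test over 5 against 5 libraries, whose smallest p is 0.00794, with adjustment over the 15 ratio tests, and the pairs were chosen after values had been seen. Col1a1 to Col1a2 was 1.115 ± 0.0309 in DMSO (SD, n = 5), 1.133 ± 0.0287 with DSHN, 1.221 ± 0.0159 with GW3965 and 1.308 ± 0.0374 with the combination. The last 2 lay above every DMSO library (exact permutation adjusted p = 0.0238 each), and the 2 genes are of like exon length, 5930 and 5222 bases. Col6a3 to Col6a1 went from 0.488 ± 0.0323 in DMSO to 0.412 ± 0.0462 with DSHN (exact permutation adjusted p = 0.0398), 0.387 ± 0.0293 with GW3965 and 0.226 ± 0.0132 with the combination (exact permutation adjusted p = 0.0238 each). Here the genes differ in length, 10858 against 3976 bases, and the log2 difference of the combination was -1.11, or -0.90 with the length trend taken out. Col5a1 to Col5a2 fell from 0.519 ± 0.0188 to 0.458 ± 0.0191 with the combination (exact permutation adjusted p = 0.0238). These genes are of 8515 and 6615 bases. The log2 difference was -0.18, or -0.14 with the length trend taken out, and the latter was not tested. For Col4a1 to Col4a2, at 1.08 ± 0.0311 in DMSO and 1.10 ± 0.0887 with the combination, and Col6a1 to Col6a2, at 1.98 ± 0.0633 and 1.999 ± 0.0822, no test passed. Col6a1 and Col6a2 differ in length, 3976 against 6014 bases. Their log2 difference with the combination was 0.01, or -0.11 with the length trend taken out, and the latter was not tested.

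**Figure D5:**
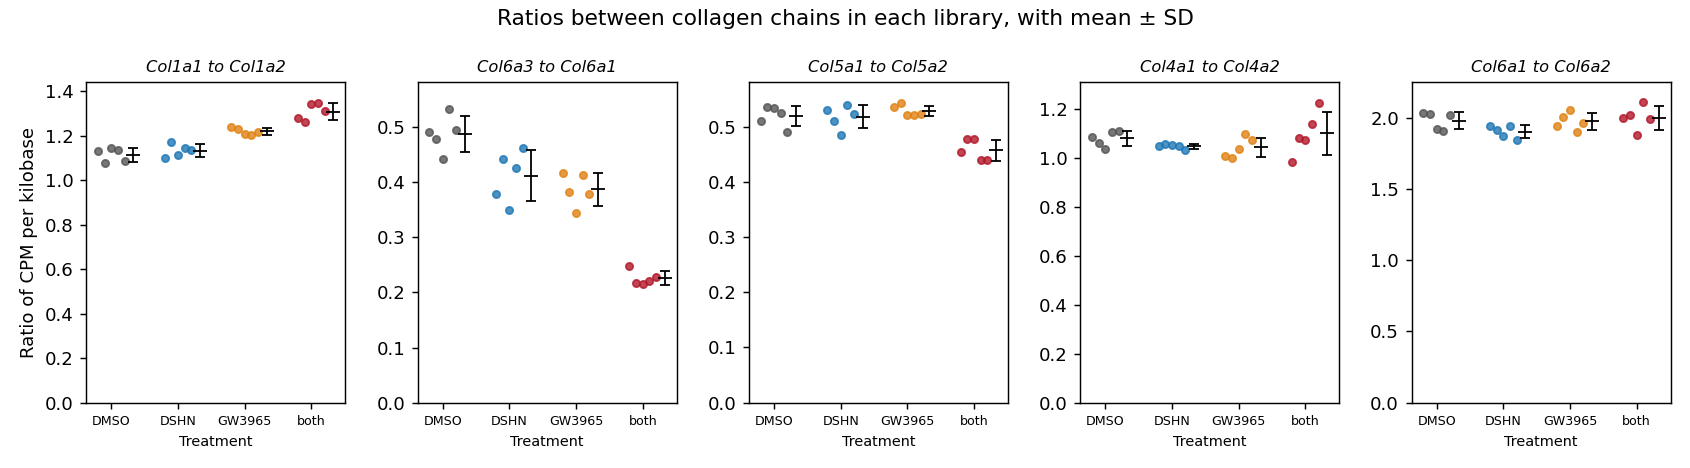
Ratio of CPM per kilobase between 5 pairs of collagen chains in each library (points), with mean ± SD (black), each axis starting at 0. Col1a1 to Col1a2 is higher with GW3965 (1.221) and the combination (1.308) than in DMSO (1.115), Col6a3 to Col6a1 is lower (0.226 against 0.488), and Col4a1 to Col4a2 and Col6a1 to Col6a2 overlap between groups.

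Start windows from the RefSeq table (GRCm38.p6) were found for 27 of the 40 genes, in 32 windows. On either strand the GC box GGGCGG stood in 59.4% of these, against 35.7% of all 32851 windows of the same length, TATAAA in 21.9% against 13.6%, CCAAT in 34.4% against 37.4%, and the AP-1 motif TGANTCA in 3.12% against 7.81%. A direct repeat of AGGTCA with 4 bases between the copies, the spacing that LXR is known to bind, was in 0 of the 32 windows and in 0.0152% of all windows. These are counts of letters in the windows, and GC boxes and CCAAT boxes can lie in the same window.

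The genes that process, sense and bind this matrix were counted from 3 further lists. Of 25 tested genes of collagen processing (the hydroxylases, chaperones, export factors and propeptide-cleaving enzymes), 4 were higher and 11 lower with the combination than in DMSO, with a median of -0.16, and 1 and 13 with the length trend taken out. The 60% called lies below the 64.8% of all tested genes, and the corrected 56% below the 58.4%. By direction 44% were lower and 16% higher, against 32.9% and 31.9% of all tested genes. With the length trend taken out 52% were lower and 4% higher, against 28.2% and 30.2%. Plod1, a lysyl hydroxylase, was lower with the combination than with GW3965 (-0.37 ± 0.04, adjusted p = 1.76e-08). Mia3, which loads procollagen into export vesicles, was lower than in DMSO (-0.51 ± 0.05, adjusted p = 5.54e-10, and -0.25 with the length trend taken out), and Crtap, a partner of prolyl 3-hydroxylase, was higher (0.30 ± 0.04, adjusted p = 4.59e-08, and 0.10 with the trend taken out). With DSHN alone 0 were higher and 5 lower (20% called, against 29%), and with GW3965 alone 7 and 6 (52%, against 46.5%).

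In the TGF-beta pathway, a main inducer of matrix genes in fibroblasts, 19 of 29 tested genes were lower and 3 higher with the combination than in DMSO (median -0.31), or 65.5% lower against 32.9% of all tested genes. With the length trend taken out 17 were lower and 5 higher (58.6% lower, against 28.2%). Ltbp2, a latent TGF-beta binding protein of microfibrils, had a log2 fold change of -1.04 ± 0.07 (adjusted p = 4.58e-13). Skil, a repressor of SMAD proteins, was at -0.73 ± 0.04 (adjusted p = 1.30e-13). DSHN alone gave 2 higher and 10 lower (41.4% called, against 29%), and GW3965 alone 7 and 12 (65.5%, against 46.5%). Among matrix receptors and genes of collagen uptake 21 of 25 tested were lower and 1 higher with the combination (median -0.38), or 84% lower against 32.9% of all tested genes, and 18 and 1 after correction (72% lower, against 28.2%). The integrin chains Itga5, of the fibronectin receptor, and Itgav, of vitronectin receptors, had log2 fold changes of -0.998 ± 0.05 (adjusted p = 4.30e-15) and -0.93 ± 0.04 (adjusted p = 1.67e-15), and the hyaluronan receptor Cd44 of -0.86 ± 0.04 (adjusted p = 2.98e-16). DSHN alone gave 2 higher and 11 lower (52% called, against 29%), and GW3965 alone 8 and 10 (72%, against 46.5%).

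Markers of other cell types moved beside the matrix genes, some with them and some not. Of 6 tested fibroblast markers 2 were lower and 1 higher with the combination than in DMSO (33.3% lower, against 32.9% of all tested genes). With the length trend taken out 1 was lower and 2 higher (16.7% lower and 33.3% higher, against 28.2% and 30.2%). Pdgfrb, the receptor for platelet-derived growth factor B, was lower with the combination than in DMSO (-0.58 ± 0.07, adjusted p = 1.84e-08, and -0.40 after correction). Pdgfra was lower with the combination than with DSHN alone (-0.42 ± 0.10, adjusted p = 0.000594), a call not kept after length correction (adjusted p = 0.11), and Cxcl12, a chemokine of marrow stroma, went the other way: it was higher with the combination than in DMSO (0.58 ± 0.12, adjusted p = 0.0001025), with an interaction of -1.24 ± 0.16 (adjusted p = 5.89e-07). Of the smooth muscle and pericyte markers Cspg4 had a log2 fold change with the combination of -0.92 ± 0.11 (adjusted p = 8.79e-08), Actg2 of -0.37 ± 0.06 (adjusted p = 5.70e-06) and Cnn1 of -0.23 ± 0.05 (adjusted p = 0.000127), the latter pair at -0.65 and -0.37 after length correction. Mustn1, named after its values were seen, was the marker of that list called higher (0.55 ± 0.18, adjusted p = 0.00990), a call not kept after correction (adjusted p = 0.238). Of the 10 tested macrophage markers 5 were lower and 4 higher with the combination than in DMSO (50% lower, against 32.9% of all tested genes). With the length trend taken out 7 were lower and 2 higher (70% lower, against 28.2%). Among them Lgals3 was higher with the combination (0.67 ± 0.04, adjusted p = 2.26e-14, and 0.41 after correction) and Cd14 lower (-0.70 ± 0.05, adjusted p = 2.21e-12). Mertk was higher with GW3965 alone by 1.40 ± 0.06 (adjusted p = 1.30e-15). With the combination its log2 fold change from DMSO was 0.94, or 1.17 after length correction, the highest of the 10 markers. Of 5 tested endothelial markers 1 was called with the combination against DMSO (20%, against 64.8% of all tested genes). It was Kdr, which was lower (-0.93 ± 0.12, adjusted p = 1.003e-07). Of 4 tested osteoblast markers 75% were called in the same comparison, against 64.8% of all tested genes. Of these 1 was lower, Runx2 (-0.36 ± 0.07, adjusted p = 4.06e-05, not called after length correction at an adjusted p of 0.12), and 2 were higher. These 2, named after their values were seen, were Alpl at 0.87 ± 0.23 (adjusted p = 0.00192) and Sp7 at 0.54 ± 0.21 (adjusted p = 0.0258).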

How the data were processed

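Per the labels' protocols, mRNA of 20 cultures went into stranded libraries. The submitters' processing notes name STAR and GRCm39, and per the file headers the read counts per gene, deposited as raw counts with 1 file per library, come from featureCounts 2.0.0. The commands in the headers hold no option for strand or for reads over several genes, so reads of either strand count and reads over 2 genes go unassigned. Of 46318 GeneIDs, 44749 were named from a RefSeq table. All 40 genes matched, and 1569 unnamed genes hold 0.474% of the counts.

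Genes passing edgeR's filterByExpr (13307) were scaled by TMM and fitted by quasi-likelihood (edgeR 4.0.16, R 4.3.3) with 1 mean per treatment over all libraries, in 6 contrasts, with Benjamini-Hochberg adjustment over all tested genes. The biological coefficient of variation was 0.0536, and over 40 replicate pairs the chi-square per degree of freedom was 2.47 to 13.3, so no pair agreed within sampling noise. The length correction subtracts, per library, a spline (5 degrees of freedom) of log2 CPM deviations on log2 exon length. The scripts were tested on simulated counts. Alternatives were other scalings and filters, DESeq2 1.42.0, limma voom 3.58.1, the contrast's groups only, a replicate block, the length correction, and leaving out each library.

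The genes and all lists were chosen with earlier results of these data known, and the chain ratios and a correction for length and genomic span together after values were seen. Genes of at least 1 CPM in a group are named. Those called with an absolute log2 fold change of at least 0.5 (26) are given in every library, the other 10 by range, and of each further list the 3 genes with the smallest adjusted p and at least 5 CPM. One gene of these is not reported here.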

Additional observations from a re-analysis of the deposited data

Results flagged for a closer look

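Over 144 sets of 1 gene in 1 group, 6 had a highest library that stood apart from the other 4 by Dixon's 95% criterion, where chance gives about 5% of sets. They were Col5a3 in DMSO replicate 1 at 55.05 CPM, Vcan in DMSO replicate 1 at 33.35, Col11a1, Col4a1 and Col6a3 in GW3965 replicate 1 at 9.429, 163.8 and 210.4, and Tnc in combination replicate 1 at 196.9. All 6 were replicate 1 of their group. Without DMSO replicate 1 the GW3965 call on Vcan ended, and the falls of Col5a3 and Tnc stayed called in every fit that left out 1 library.

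For 30 of the 36 tested genes the DSHN effect differed by the presence of GW3965 (interaction term of edgeR, adjusted p under 0.05). That is 83.3%, against 50.2% of all tested genes. The log2 differences of effects were -0.46 for Col1a1, -0.53 for Col1a2, -0.71 for Col3a1, -0.83 for Col5a1, -0.62 for Col5a2, 0.25 for Col5a3 and -0.66 for Col11a1. In basement membrane and network genes they were -0.57 for Col4a1, -0.68 for Col4a2, -0.39 for Col8a1, 0.22 for Col18a1 and -1.57 for Hspg2. The collagen VI chains had -0.63 for Col6a1, -0.71 for Col6a2 and -1.16 for Col6a3, and the fibril-associated collagens -1.89 for Col12a1 and -0.49 for Col16a1. Among glycoproteins and elastic fibre genes they were -1.26 for Fn1, -2.02 for Svep1, -1.31 for Fbn1, -0.43 for Fbln2 and -1.13 for Fbln5. The remaining values were -1.70 for Ogn, -0.38 for Bgn, -0.89 for Vcan, -0.46 for Lox, -0.51 for Postn, -0.68 for Thbs1, -0.54 for Thbs2 and -0.19 for Tnc. With the length trend taken out 4 of these moved by over 1.5 times, to -0.35 for Col4a1, 0.40 for Col5a3, 0.42 for Col18a1 and 0.02 for Tnc.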

How the results depend on the processing

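Counts of called matrix genes moved by over 1.5 times under 1 alternative: with no filter on low counts, DSHN against DMSO called 14 genes (3 higher and 11 lower) in place of 9, with 13.2% of 27110 genes called in place of 29% of 13307. For the other comparisons and settings, the counts stayed within that bound. Leaving out each library gave 30 to 33 genes for combination against DMSO, 8 to 13 for DSHN and 15 to 18 for GW3965. Of all tested genes these fits called 62 to 63.7%, 23.7 to 29.2% and 42.6 to 46.7%. The labels give no shared source for equal replicate numbers, and not every pair exceeded r = 0.1, so the numbers were not taken as pairing. Deviations of same-numbered libraries gave r of -0.474 to 0.486 over 30 pairs (median 0.142, against -0.0535 over 120 other pairs), and by mean r 11 of 20 libraries were closest to their own among the 5 numbers, a hint from the data and not from the design. With the replicate block the counts were 10 for DSHN, 16 for GW3965, 32 for the combination, and 35, 34 and 30 for the combination against GW3965, against DSHN and for the interaction. In the same order 30%, 47.1%, 64.9%, 58.7%, 58.6% and 50.9% of all tested genes were called. Of gene results that passed the test in either fit, 6 turned direction under the length corrections. For Col18a1, combination against GW3965, the log2 difference was 0.0277 with the length correction, 0.0263 with the block added and 0.132 with the correction for length and span, and for the Tnc interaction it was 0.0173, 0.0165 and 0.0729. Under the correction for length and span, chosen after seeing the data, combination against DMSO gave 0.00636 for Col15a1 and 0.231 for Fbln5, which then passed as higher, and Loxl2 gave 0.0144 against DSHN and 0.193 for the interaction. The cause of these turns was not tested. The DSHN call on Fbn1 ended with DESeq2 (adjusted p = 0.102). Depth limits Eln, Lum and Dcn, which had too few counts to test.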
